A study of Mus musculus with 6 samples.

Results

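The enzymes and transporters that carry glucose to pyruvate, lactate and pentose phosphates were followed in RAW264.7, a mouse macrophage-like line established from a virus-induced tumour. The 33 genes were taken by name from the table of FPKM (read fragments scaled by gene length and library size), where they occupied 34 of 56748 gene identifiers because Aldoa is listed under 2. The Fbxw11 group held 3 libraries of cells infected with a lentivirus, pMSCV-Fbxw11-pGk-GFP, that carries Fbxw11. The control group held 3 libraries of the same line infected with control vector; they are named for GFP, and what that vector holds is not described further. Cells of both groups were sorted before total RNA was extracted, and no drug, cytokine or oxygen treatment is given in the labels for either group. Fbxw11 encodes an F-box protein, the substrate-binding part of an SCF ubiquitin ligase, and the design sets its overexpression against the control vector. The labels do not say whether the libraries came from separate cultures or infections, so every p-value here rests on a spread that could be technical alone, and each group is 1 line carrying 1 construct.

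Glycolysis splits glucose into pyruvate in the cytosol. Its committed step, phosphofructokinase-1, is activated by fructose 2,6-bisphosphate, a signal made and removed by the PFKFB enzymes and broken down by Tigar. Pyruvate becomes lactate through lactate dehydrogenase and leaves the cell on monocarboxylate transporters, or enters mitochondria through pyruvate dehydrogenase, while glucose 6-phosphate can be diverted into the pentose phosphate pathway for NADPH and ribose. In macrophages these genes are known for their induction by inflammatory stimuli and by the hypoxia factor HIF-1, which reads a short core, ACGTG or GCGTG, in the promoters of many of them.

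Of the 33 genes, 3 rose in Fbxw11 libraries by limma, Pfkfb3, Hk3 and Slc2a1, and 0 fell. Of all gene identifiers tested, 4.60% rose and 4.64% fell. Pfkfb3 was called in all of 17 alternative analyses, while the call was lost in 9 for Hk3 and in 10 for Slc2a1. Limma-voom on reads called 5 members higher, the same 3 with G6pdx and Pfkp, and 2 lower, Pdk1 and Slc16a1. By voom 6.90% of all identifiers tested were higher and 6.72% lower. The upstream sequence of the 3 genes called by limma is shown because the HIF-1 core is a feature that the choice of members did not use. It was present in 30 of the 33 members, against 41.5% of all genes. The windows are the 250 bases before each start in RefSeq (GRCm38.p6), written 5′ to 3′ on the strand of the gene, with ACGTG or GCGTG on either strand in capitals.
Pfkfb3, downstream start, chr2:11502091-11502340, minus strand: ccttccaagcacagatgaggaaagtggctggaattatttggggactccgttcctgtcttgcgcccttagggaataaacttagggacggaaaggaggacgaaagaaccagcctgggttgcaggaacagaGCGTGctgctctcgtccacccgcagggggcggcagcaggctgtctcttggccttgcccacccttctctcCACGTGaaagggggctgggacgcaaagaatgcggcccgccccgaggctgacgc
Pfkfb3, upstream start, chr2:11553930-11554179, minus strand: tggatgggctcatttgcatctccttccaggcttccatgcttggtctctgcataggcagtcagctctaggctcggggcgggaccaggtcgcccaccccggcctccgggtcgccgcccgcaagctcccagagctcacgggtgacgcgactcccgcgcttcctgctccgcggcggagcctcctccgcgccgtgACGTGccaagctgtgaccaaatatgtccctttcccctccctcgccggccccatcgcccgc
Hk3, chr13:55021386-55021635, minus strand: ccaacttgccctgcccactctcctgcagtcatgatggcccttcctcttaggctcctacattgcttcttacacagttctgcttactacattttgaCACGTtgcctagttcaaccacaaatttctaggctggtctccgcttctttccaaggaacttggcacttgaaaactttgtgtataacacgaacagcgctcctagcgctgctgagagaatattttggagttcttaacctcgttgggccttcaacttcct
Slc2a1, chr4:119108495-119108744, plus strand: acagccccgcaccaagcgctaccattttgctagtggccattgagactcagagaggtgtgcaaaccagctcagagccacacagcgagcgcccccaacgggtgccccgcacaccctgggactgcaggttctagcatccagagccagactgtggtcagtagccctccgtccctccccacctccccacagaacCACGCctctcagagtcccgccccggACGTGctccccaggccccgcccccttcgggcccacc
The downstream Pfkfb3 window held cores 122, 53 and 52 bases before the start, the last pair being both strands of the palindrome CACGTG, and the upstream window held a core 60 bases before its start. Hk3 had a single core 156 bases before its start, in a window of 47.2% GC. Slc2a1 had cores at 61 and 36 bases, in a window of 66.4% GC.

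All 33 genes matched the RefSeq promoter table, with 49 windows between them. A core of either spelling, searched on both strands, was present in at least 1 window of 30 of the 33 genes, against 41.5% of the 27025 genes in the table. The spelling ACGTG was found in 14 members, against 18.5% of all genes, and GCGTG in 24 members, against 30.9%. Gpi1, Tpi1 and Tigar had neither spelling. The palindrome CACGTG, which contains ACGTG on both strands, was found in 5 members (Pfkm, Pfkfb2, Pfkfb3, Ldha and Slc16a1), against 6.86% of all genes, and the GC box GGGCGG in 25, against 35.4%. The TATA box TATAAA was in 0 members, against 14.3% of all genes. A kappaB site was found in 4 (Pfkm, Pfkfb2, Pgk1 and Pdha1), against 8.23%. The member windows had a median GC content of 60.4%, against 52.4% over all 32851 windows of the table, and a gene with several windows had more chances of a match, so the shares are descriptions and the part of base composition in them was not tested. Of the 30 genes with a core, 3 passed the test of expression.

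The FPKM values of every library were whole multiples of 1 read within 0.02, which gave back between 16191971 and 18951653 reads per library. Fbxw11 itself had 274, 272 and 268 FPKM in Fbxw11 libraries, against 35.8, 36.5 and 36.0 FPKM in control libraries, so the libraries labelled Fbxw11 carried more of its RNA. Differences were tested with limma on log2(FPKM + 1) for the 10898 identifiers with a mean of at least 1 FPKM, two-sided, with Benjamini-Hochberg adjustment over all of them and a threshold of 0.05. The log2 fold changes below are on that scale, which understates changes of low genes. By this test 9.24% of all identifiers were called, 4.60% higher and 4.64% lower. With FPKM rescaled to TPM the split was 348 higher and 712 lower, against 501 higher and 506 lower on the authors' scale. The first principal component, with 33.8% of the variance, separated the groups, and the second, with 23.7%, set both libraries numbered 3 apart from the other 4. Of 10 macrophage markers 9 were at or above 1 FPKM on average. Mertk was the exception, with at most 0.0142 FPKM in any library. The summed level of the 10 was 4681 to 4806 FPKM in Fbxw11 libraries, against 4224 to 4398 FPKM in control libraries. Adgre1 (log2 fold change 0.54, limma adjusted p = 0.00088), Itgam (0.47, 0.00274), Lyz2 (0.16, 0.0478) and Fcgr1 (0.19, 0.0382) rose, and their part in the results below was not tested. The first 2 were called in all 17 alternatives, Lyz2 in 5 (limma adjusted p 0.00300 to 0.660) and Fcgr1 in 6 (0.0117 to 0.125). Csf1r was lower in every Fbxw11 library than in any control library but was not called (log2 fold change -0.07, limma adjusted p = 0.290). Of 16 markers of other cell types 4 reached 1 FPKM on average. The summed level of the 16 was 4.58 to 6.10 FPKM in Fbxw11 libraries and 5.97 to 6.69 FPKM in control libraries, and Ncr1, Hbb-bs and Krt18 were listed at 0 in every library. Bulk values cannot tell fewer cells of a kind from less RNA per cell.

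Of the 34 member identifiers 33 were tested, and 3 were called higher and 0 lower, a share of higher calls to be read against the 4.60% of all identifiers. The median log2 fold change of the members was 0.02, against 0.00 over all identifiers, with 19 members above 0 and 14 below. In 8 members every Fbxw11 library was above every control library, and in 2 every Fbxw11 library was below, where 15.6% and 15.5% of all identifiers were so arranged. At an unadjusted p under 0.05 there were 9 members, or 27.3%, close to the 24.6% of all identifiers. By limma-voom on the recovered reads, 6.90% of all identifiers were higher and 6.72% lower, and among members 5 were higher and 2 lower. The 30 members that were not called had 95% intervals between -0.87 and 0.52 on the log2 scale, and for 24 of them the whole interval lay within 0.3 of 0. With both libraries numbered 3 left out, 4 members were called higher (the 3 named and G6pdx) and 0 lower.

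**Figure D1:**
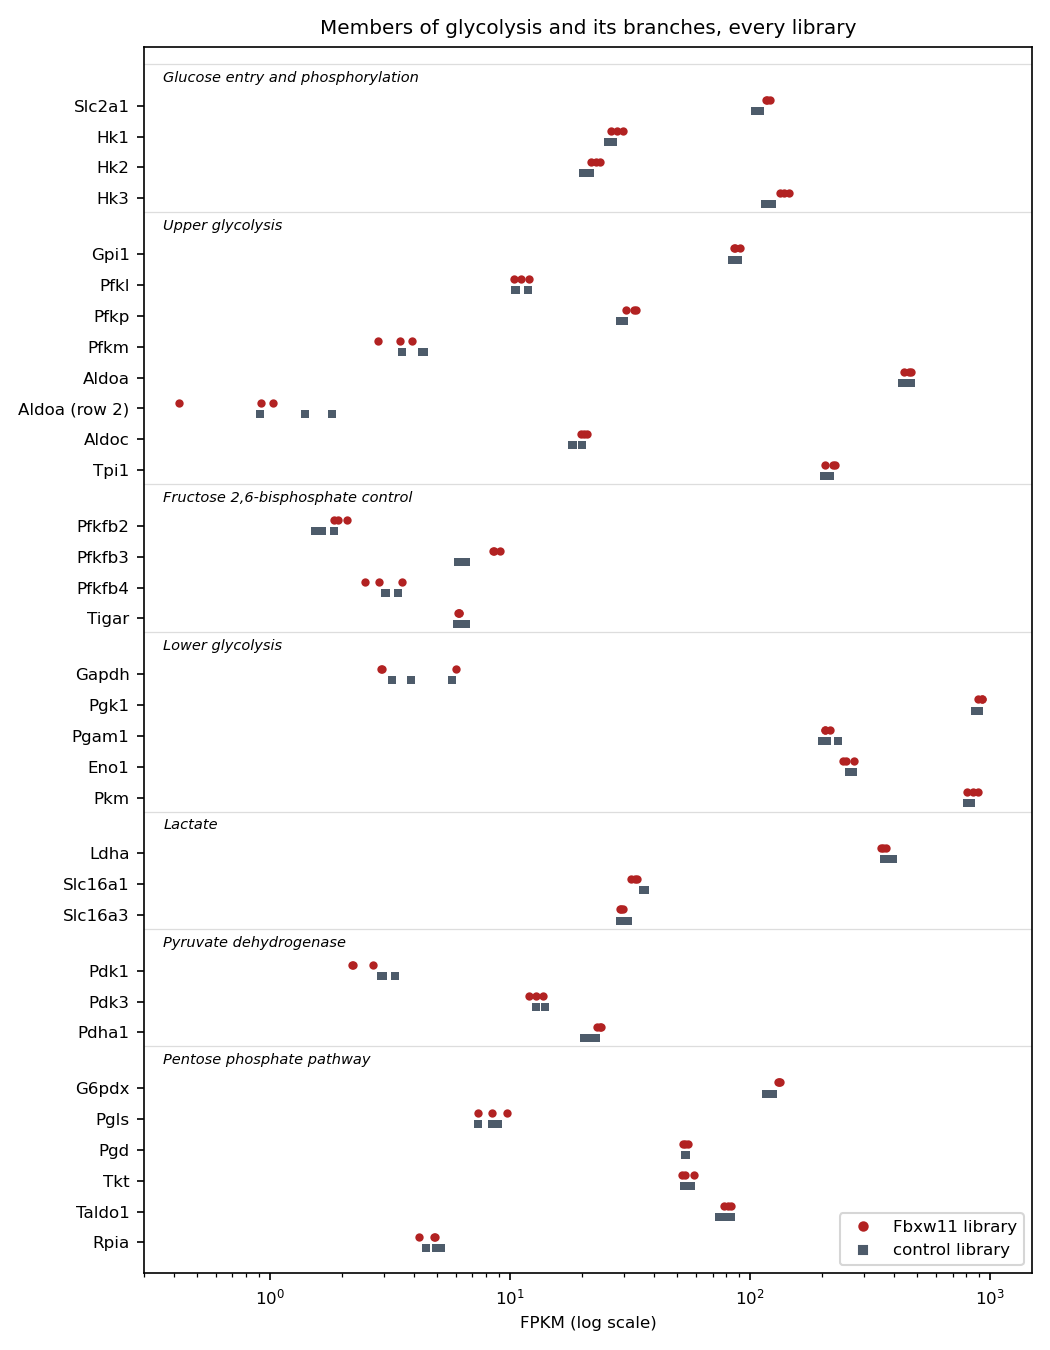
FPKM on a log axis for each tested member, grouped by role, with red circles for the 3 Fbxw11 libraries and grey squares for the 3 control libraries. Levels run from 0.42 FPKM for the second Aldoa identifier to 929 FPKM for Pgk1. In 8 rows every Fbxw11 library is above every control library, and in 2 below, where 15.6% and 15.5% of all identifiers were so arranged. Ldhb is left out because its mean was under 1 FPKM and it was not tested.

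Glucose entry was the role with the most calls, with 2 of its 4 members higher, where 4.60% of all identifiers were called higher. The other 2 were positive but not called, and 5546 of the 10898 identifiers tested were positive. The median log2 fold change of the role was 0.13, against 0.00 over all identifiers. Hk3 (ENSMUSG00000025877, chromosome 13), a hexokinase isozyme typical of myeloid cells, had 146, 139 and 133 FPKM in Fbxw11 libraries, against 122, 115 and 124 FPKM in control libraries. The lowest Fbxw11 library was above the highest control library. Its log2 fold change was 0.21 (SE 0.046), with a limma adjusted p of 0.0378 and a ratio of means of 1.16. Slc2a1 (ENSMUSG00000028645, chromosome 4), the basal glucose transporter GLUT1, had 121, 118 and 117 FPKM in Fbxw11 libraries, against 106, 106 and 111 FPKM in control libraries, again with no overlap. Its log2 fold change was 0.14 (SE 0.034; limma adjusted p = 0.0470). Both calls lay close to the threshold. Hk3 was called in 8 of 17 alternative analyses, with limma adjusted p between 0.00352 and 0.131, and Slc2a1 in 7 of 17, with adjusted p between 0.0144 and 0.169; the direction held in all 17 for each. Leaving out either of Fbxw11 libraries 1 and 2, or any control library, ended the call for Hk3 (limma adjusted p 0.0604 to 0.131), and leaving out any 1 library ended it for Slc2a1 (0.0504 to 0.169).

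Hk2, the hexokinase bound to mitochondria and raised by insulin and HIF-1 in many tissues, was the least abundant of the role. It had 23.8, 22.8 and 21.8 FPKM in Fbxw11 libraries, against 20.3, 21.7 and 20.5 FPKM in control libraries, which just failed to overlap (limma adjusted p = 0.151). Hk1, the widely expressed isozyme, averaged 28.1 ± 1.65 FPKM in Fbxw11 libraries and 26.3 ± 0.56 FPKM in control libraries (SD, n = 3 each; adjusted p = 0.313 by limma). The 4 log2 fold changes of glucose entry, 0.09 to 0.21, were above 0 in every alternative analysis. Summed over the 3 hexokinases, the level was 190 ± 9.04 FPKM in Fbxw11 libraries and 168 ± 4.15 FPKM in control libraries (SD, n = 3 each), with no overlap between 181.6 and 170.7 FPKM, the lowest Fbxw11 and highest control values.

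Fructose 2,6-bisphosphate control held the member with the largest change among the calls. Pfkfb3 (ENSMUSG00000026773, chromosome 2), the inducible bifunctional enzyme whose kinase activity far exceeds its phosphatase activity, had 9.09, 8.48 and 8.61 FPKM in Fbxw11 libraries, against 6.10, 6.60 and 6.54 FPKM in control libraries. Every Fbxw11 library stood well above every control library. The log2 fold change was 0.39 (SE 0.047; 95% interval 0.28 to 0.51; limma adjusted p = 0.00514), and the ratio of means was 1.36. Pfkfb3 was called in all 17 alternative analyses, with limma adjusted p between 0.000136 and 0.0334, the highest being with both libraries numbered 3 left out. Reads behind it were moderate, 1119 in Fbxw11 library 1 and 758 in control library 1.

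The other members of the group were not called. Pfkfb2, an isozyme known from heart whose kinase is controlled by phosphorylation, was the least abundant, with 1.85, 1.92 and 2.10 FPKM in Fbxw11 libraries against 1.65, 1.85 and 1.54 FPKM in control libraries (limma adjusted p = 0.290). Pfkfb4, an isozyme first known from testis, had 2.86, 2.49 and 3.56 FPKM in Fbxw11 libraries and 3.43, 3.04 and 3.01 FPKM in control libraries, so the groups overlapped widely. Tigar, a phosphatase of fructose 2,6-bisphosphate, averaged 6.13 ± 0.05 FPKM in Fbxw11 libraries and 6.31 ± 0.26 FPKM in control libraries (SD, n = 3 each), with a 95% interval of the log2 difference of -0.14 to 0.07.

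**Figure D2:**
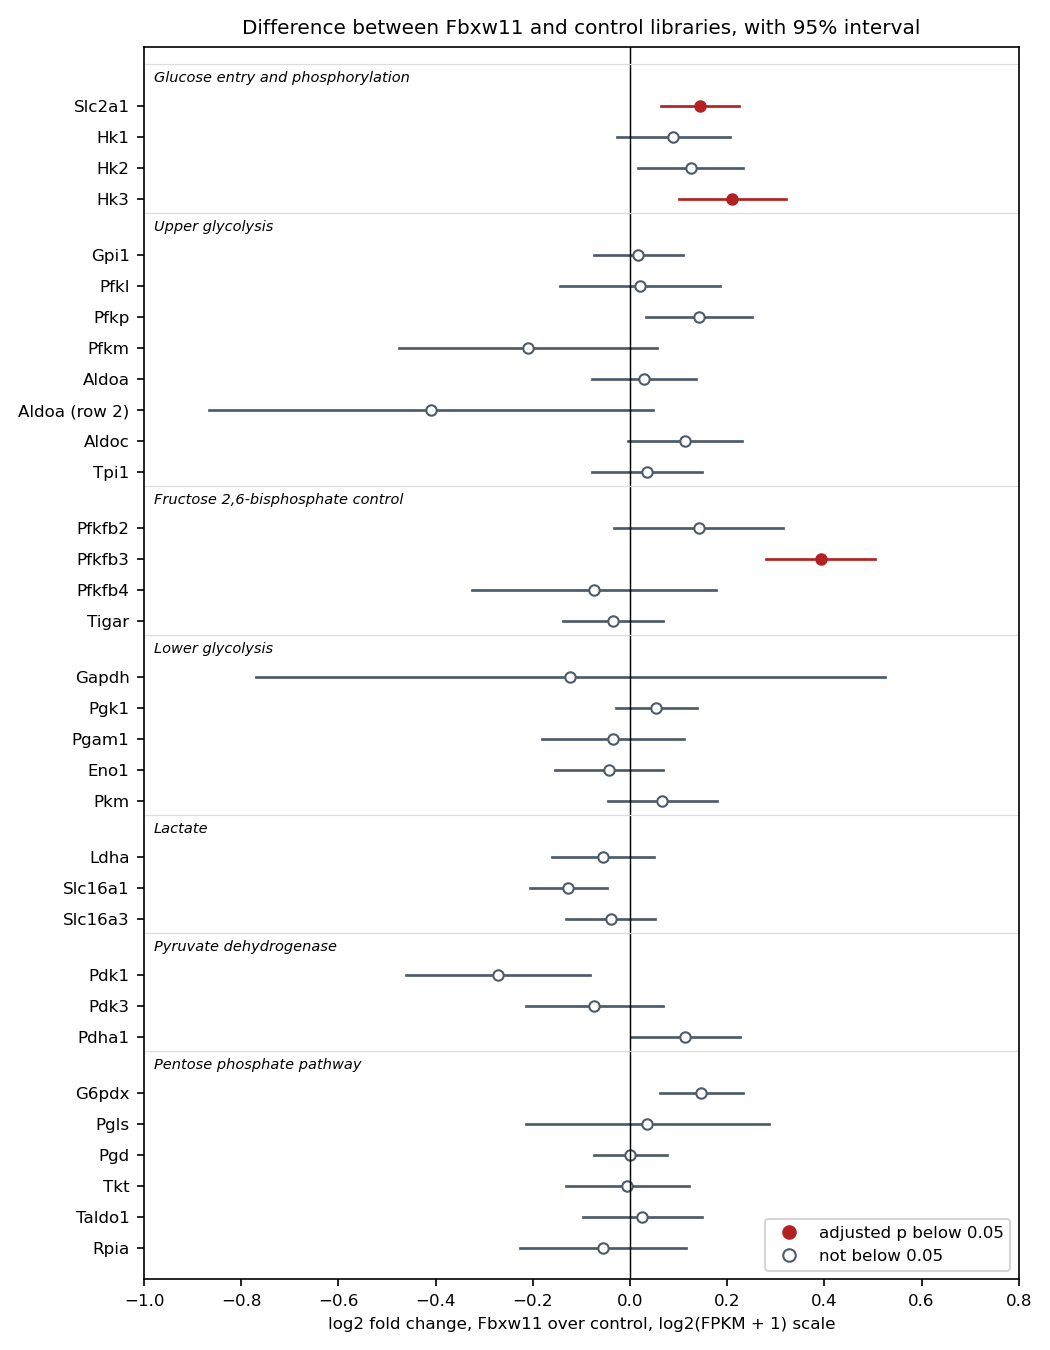
Log2 fold change of Fbxw11 over control for each tested member (points) with the 95% interval of the limma fit (bars); filled red points are the members with an adjusted p below 0.05. The 3 filled points are Slc2a1, Hk3 and Pfkfb3, and the widest intervals are those of Gapdh and the second Aldoa identifier.

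In the rest of upper glycolysis, 0 of 8 identifiers were called by limma (1 at an unadjusted p under 0.05), with a median log2 fold change of 0.02. Phosphofructokinase-1 is a tetramer of Pfkl, Pfkp and Pfkm subunits, the liver, platelet and muscle types. Pfkp was the main subunit, with 33.7, 32.9 and 30.4 FPKM in Fbxw11 libraries, against 29.0, 29.9 and 28.8 FPKM in control libraries. The groups did not overlap, and the log2 fold change of 0.14 had a limma adjusted p of 0.116; voom on the recovered reads called it, with an adjusted p of 0.0390, and so did the limma fit without Fbxw11 library 3 (0.0434). Pfkl averaged 11.2 ± 0.82 FPKM in Fbxw11 libraries and 11.0 ± 0.81 FPKM in control libraries (SD, n = 3 each). Pfkm had 3.92, 3.49 and 2.83 FPKM in Fbxw11 libraries and 3.55, 4.39 and 4.33 FPKM in control libraries, a log2 fold change of -0.21 that was not called (limma adjusted p = 0.301).

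Aldolase cleaves fructose 1,6-bisphosphate. Its main gene row, Aldoa ENSMUSG00000030695 on chromosome 7, was the most abundant of upper glycolysis, with 460, 440 and 470 FPKM in Fbxw11 libraries against 431, 443 and 470 FPKM in control libraries. The second row of that name, ENSMUSG00000114515, lies next to it on the same strand, does not overlap it, and was the least abundant, with 0.92, 0.42 and 1.03 FPKM in Fbxw11 libraries against 1.83, 0.91 and 1.40 FPKM in control libraries (limma adjusted p = 0.247). Aldoc, the isozyme best known from brain, averaged 20.4 ± 0.63 FPKM in Fbxw11 libraries and 18.8 ± 1.06 FPKM in control libraries (SD, n = 3 each; limma adjusted p = 0.215). Gpi1, the isomerase that makes fructose 6-phosphate, and Tpi1, which interconverts the triose phosphates, had log2 fold changes of 0.02 and 0.04, with 95% intervals of -0.07 to 0.11 and -0.08 to 0.15.

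Lower glycolysis held the most abundant members, and 0 of its 5 genes were called by limma, with 0 at an unadjusted p under 0.05 and 0 by voom. Pgk1, phosphoglycerate kinase, had 929, 926 and 890 FPKM in Fbxw11 libraries, against 868, 876 and 899 FPKM in control libraries, and ranked 22 by mean FPKM among the identifiers tested. Its log2 fold change of 0.05 had a 95% interval of -0.03 to 0.14. Pkm, the pyruvate kinase gene whose M1 and M2 isoforms a table per gene cannot separate, averaged 853 ± 45.1 FPKM in Fbxw11 libraries and 814 ± 18.3 FPKM in control libraries (SD, n = 3 each), with a 95% interval of the log2 difference of -0.05 to 0.18. Pgam1, the mutase, and Eno1, the enolase, had log2 fold changes of -0.03 and -0.04, with 95% intervals of -0.18 to 0.11 and -0.15 to 0.07. Fold changes of these 4 genes were small beside their intervals, each of which included 0.

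Gapdh, the dehydrogenase often used as a loading control, was listed at a level far below its neighbours in the pathway: 2.91, 2.94 and 5.99 FPKM in Fbxw11 libraries against 5.77, 3.86 and 3.22 FPKM in control libraries. The libraries of a group differed from each other by more than counting error gives. The coefficient of variation was 44.8% in Fbxw11 libraries and 30.9% in control libraries. Counting error alone comes to 5.69% at the mean reads of the control libraries. The mouse genome holds many pseudogene copies of Gapdh. Of the 31-base words of its messenger transcripts in GENCODE vM21, 62.6% also occur in annotated pseudogenes, and 95 pseudogenes share at least 20% of their own words with it, of which 51 had reads. In Fbxw11 libraries these copies held 25312, 26251 and 29496 reads, against 196, 217 and 422 reads on Gapdh itself. In control libraries they held 22021, 26073 and 29002 reads, against 392, 307 and 226 on Gapdh. Between 98.3% and 99.2% of the reads of the family therefore stood on copies.

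Nearly all of them were on a single pseudogene on chromosome 2, Gm13394, which shares 96.8% of its words with Gapdh. It was listed at 1501, 1418 and 1675 FPKM in Fbxw11 libraries and 1287, 1297 and 1658 FPKM in control libraries, a log2 fold change of 0.12 that was not called (limma adjusted p = 0.559) and in which both libraries numbered 3 were the highest of their group. The sources used here do not give how reads that fit several places were assigned. The level of the Gapdh row, and the direction of its log2 fold change of -0.12, which turned positive in 3 of the analyses that left out 1 library, cannot be read as those of the gene.

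**Figure D3:**
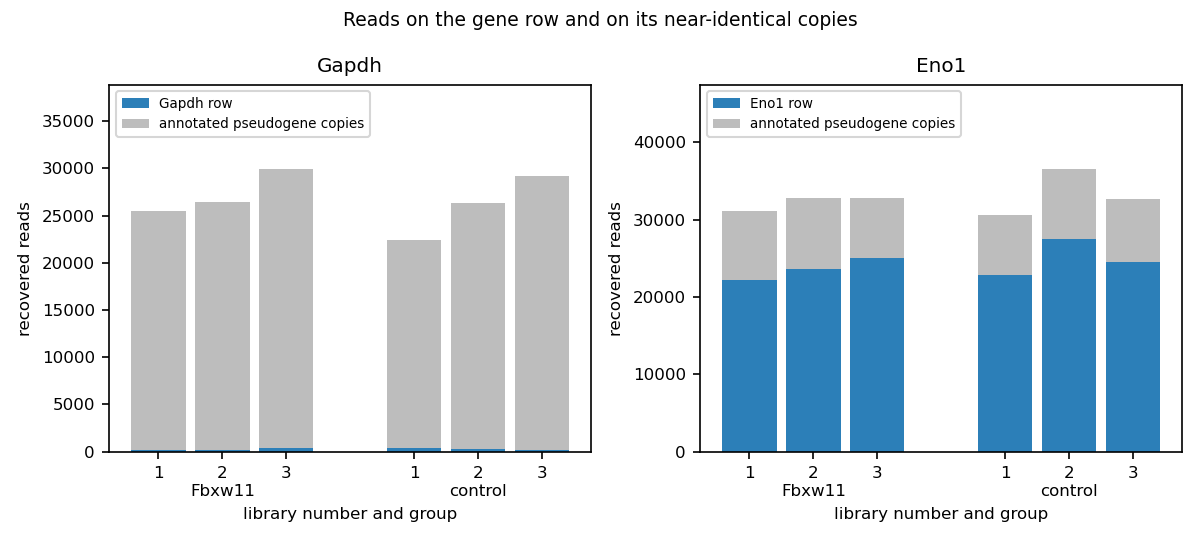
Recovered reads on the Gapdh row (left) and the Eno1 row (right), in blue, and on their annotated pseudogene copies, in grey, for Fbxw11 libraries 1 to 3 and control libraries 1 to 3. Gapdh itself is a thin band of 196 to 422 reads under 22021 to 29496 reads on copies. The copies of Eno1 hold 23.7% to 28.7% of the reads shown for it, with Eno1b not counted.

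Eno1 had the next largest share of reads on copies. Of the reads on Eno1 and its 4 near copies annotated as pseudogenes, the copies held 28.7%, 28.1% and 23.7% in Fbxw11 libraries. In control libraries they held 25.2%, 24.5% and 24.8%. The main one, Gm4735 on chromosome 2, had 418, 394 and 348 FPKM in Fbxw11 libraries and 357, 355 and 363 FPKM in control libraries (limma adjusted p = 0.388), while Eno1 itself had 253, 245 and 273 FPKM in Fbxw11 libraries and 258, 267 and 269 FPKM in control libraries. In Fbxw11 library 3 the Eno1 row was the highest of its group and Gm4735 the lowest. Eno1b, a retrotransposed enolase gene, was not counted among the copies. It held 5837, 5803 and 5039 reads in Fbxw11 libraries and 5455, 6593 and 5342 reads in control libraries. How reads were divided among these rows was not tested, so the level and log2 fold change of the Eno1 row may not be those of the gene. Pgk1 shares more of its words with pseudogenes than Gapdh does, 68.3%, yet its 4 near copies held only 0.239% to 0.348% of the reads; the corresponding values for Pgam1 were 42.1% of words and 1.02% to 1.25% of reads, and for Pkm 29.8% and 0.520% to 0.611%. Rows whose names mark them as pseudogenes of a member were few and low: 3 for Pgk1 at 3.85 to 5.43 FPKM summed, 2 for Pgam1 at 5.33 to 6.78 FPKM, 3 for Ldha at 2.51 to 4.72 FPKM, 3 for Gapdh at 0.160 to 0.638 FPKM, and 2 for Aldoa and 1 for Ldhb at 0. Over the words of all transcripts, 14 of the 34 member rows share none with a pseudogene, Slc2a1 and Hk3 among them, and Pfkfb3 shares 0.103%. Over messenger transcripts alone, as in the shares of words above, Pfkfb3 shares 0.143%.

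The lactate genes all had log2 fold changes below 0, and 0 of the 3 tested were called by limma, with 1 at an unadjusted p under 0.05. Ldha, the subunit of lactate dehydrogenase typical of glycolytic cells, had 371, 358 and 353 FPKM in Fbxw11 libraries against 362, 368 and 395 FPKM in control libraries, a log2 fold change of -0.06 with a 95% interval of -0.16 to 0.05. Ldhb, the heart-type subunit, had 0 reads in the 3 Fbxw11 libraries, and in control libraries 0, 1 and 1 reads, so no difference was detectable at this depth and it was not tested. Slc16a1, the lactate transporter MCT1, had 32.1, 33.2 and 34.0 FPKM in Fbxw11 libraries and 36.0, 36.3 and 36.5 FPKM in control libraries. The groups did not overlap, but the log2 fold change of -0.13 (SE 0.033) had a limma adjusted p of 0.0655; it was below 0.05 on the TPM scale, at 0.0266, and by voom, at 0.0482. Slc16a3, the export-type transporter MCT4, averaged 29.2 ± 0.44 FPKM in Fbxw11 libraries and 30.1 ± 1.19 FPKM in control libraries (SD, n = 3 each; limma adjusted p = 0.576).

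At pyruvate dehydrogenase, 0 of 3 genes were called by limma, with 2 at an unadjusted p under 0.05. Pdk1, a kinase that switches the complex off and a known target of HIF-1, was the least abundant, with 2.22, 2.20 and 2.70 FPKM in Fbxw11 libraries against 3.31, 2.92 and 2.96 FPKM in control libraries. All Fbxw11 libraries were below all control libraries, with a log2 fold change of -0.27 (SE 0.079) and a limma adjusted p of 0.0885; voom gave 0.0177, and the fit without Fbxw11 library 3 gave 0.0494. Pdha1, the catalytic subunit, was the most abundant, with 23.7, 24.1 and 23.1 FPKM in Fbxw11 libraries against 22.9, 20.5 and 22.0 FPKM in control libraries (limma adjusted p = 0.196). Pdk3 averaged 12.9 ± 0.84 FPKM in Fbxw11 libraries and 13.6 ± 0.70 FPKM in control libraries (SD, n = 3 each). Pdk1 was low and Pdha1 high in all 3 Fbxw11 libraries, and neither passed the test.

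In the pentose phosphate pathway 0 of 6 genes were called by limma (1 at an unadjusted p under 0.05), with a median log2 fold change of 0.01. G6pdx, the X-linked gene of glucose 6-phosphate dehydrogenase, which sets the flux into the pathway, was the most abundant, with 132, 134 and 131 FPKM in Fbxw11 libraries against 117, 117 and 125 FPKM in control libraries. The groups did not overlap, and the log2 fold change of 0.15 (SE 0.036) had a limma adjusted p of 0.0529, just above the threshold. It fell below the threshold in 5 of 17 alternative analyses, among them voom (0.0156) and the fit without control library 3 (0.0378). Rpia, the ribose isomerase, was the least abundant, with 4.82, 4.89 and 4.21 FPKM in Fbxw11 libraries against 5.16, 4.95 and 4.47 FPKM in control libraries. Pgd, which carries out the second oxidative step, averaged 54.1 ± 1.33 FPKM in Fbxw11 libraries and 54.1 ± 0.19 FPKM in control libraries (SD, n = 3 each), and its 95% interval of -0.07 to 0.08 was the narrowest among the members. Tkt and Taldo1, the transketolase and transaldolase of the non-oxidative branch, and Pgls, the lactonase between the oxidative steps, had log2 fold changes of -0.01, 0.03 and 0.04.

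**Figure D4:**
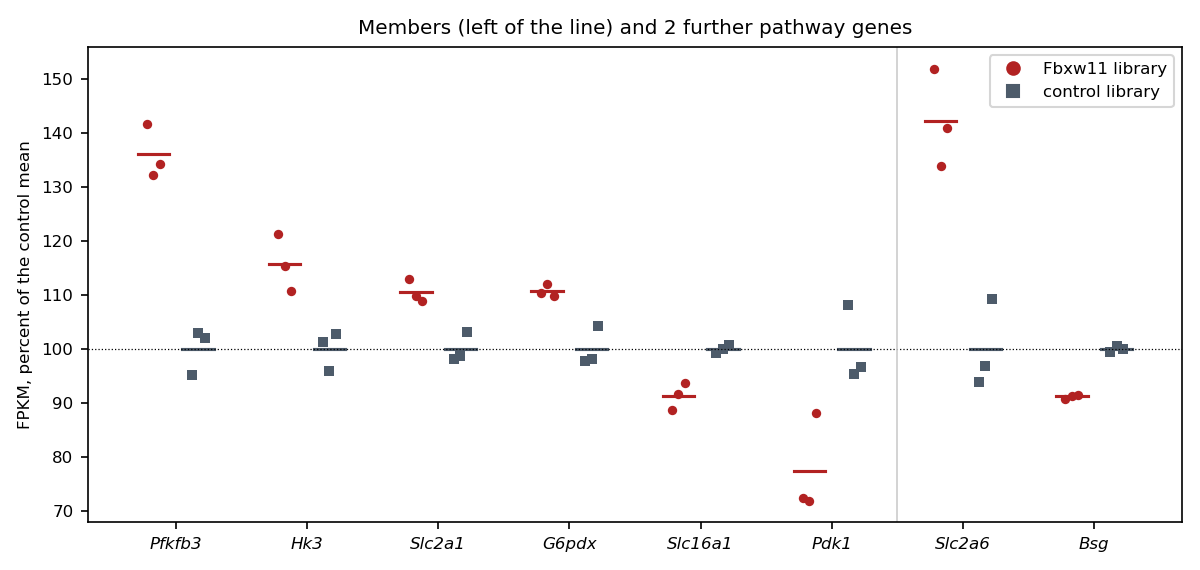
FPKM of each library as a percent of the control mean for 6 members and, right of the grey line, 2 further genes of the pathway; red circles are Fbxw11 libraries, grey squares control libraries and short bars group means. The Fbxw11 libraries of Pfkfb3 stand clear of the control libraries, Hk3, Slc2a1 and G6pdx by a narrower gap, while Slc16a1 and Pdk1 lie below the control libraries but did not pass the test.

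FPKM is per length, so isozymes of a step were set against each other within a library. The shares depend on the gene length listed, 8532 bases for Hk1 and 3682 bases for Hk3, which may not be the length of the RNA present. In Fbxw11 library 1 Hk1 had 4135 reads and Hk3 8764 reads, so a share of FPKM is not a share of reads. Of 17 shares of summed FPKM that were computed, 8 did not overlap between the groups. With 3 libraries against 3 the two-sided exact permutation test cannot give a p below 0.1. All 8 had that value (0.212 after adjustment over the 17). Shares of a step are parts of the same total, so a rise in some is met by a fall in others. The 8 were thus not independent, and came from hexokinase, phosphofructokinase-1, PFKFB and pyruvate dehydrogenase kinase. Pdk1 and Pdk3, for example, differed between the groups by -2.82 and 2.82 points. The adjustment counted each share as a separate test, and no background rate for shares was computed. Hk3 made up 73.3% ± 0.13 of hexokinase FPKM in Fbxw11 libraries and 71.8% ± 0.85 in control libraries (SD, n = 3 each), and Hk1 14.8% in Fbxw11 libraries and 15.7% in control libraries. Pfkfb3 made up 64.0% ± 3.16 of PFKFB FPKM in Fbxw11 libraries and 57.0% ± 2.23 in control libraries, while the share of Pfkfb4 was 21.7% ± 2.94 in Fbxw11 libraries and 28.1% ± 2.26 in control libraries. The summed PFKFB level was 13.7 ± 0.70 FPKM in Fbxw11 libraries and 11.3 ± 0.21 FPKM in control libraries.

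Among phosphofructokinase-1 subunits, Pfkp made up 68.9% ± 0.95 in Fbxw11 libraries and 65.9% ± 1.85 in control libraries, and Pfkm 7.23% ± 0.71 in Fbxw11 libraries and 9.21% ± 0.84 in control libraries. Pdk1 made up 15.5% ± 1.77 of the summed Pdk1 and Pdk3 level in Fbxw11 libraries and 18.4% ± 0.80 in control libraries. The other 9 shares overlapped: Ldha was 100% of lactate dehydrogenase FPKM in Fbxw11 libraries and 99.99% in control libraries, and Aldoa 95.7% of aldolase in Fbxw11 libraries and 96.0% in control libraries.

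**Figure D5:**
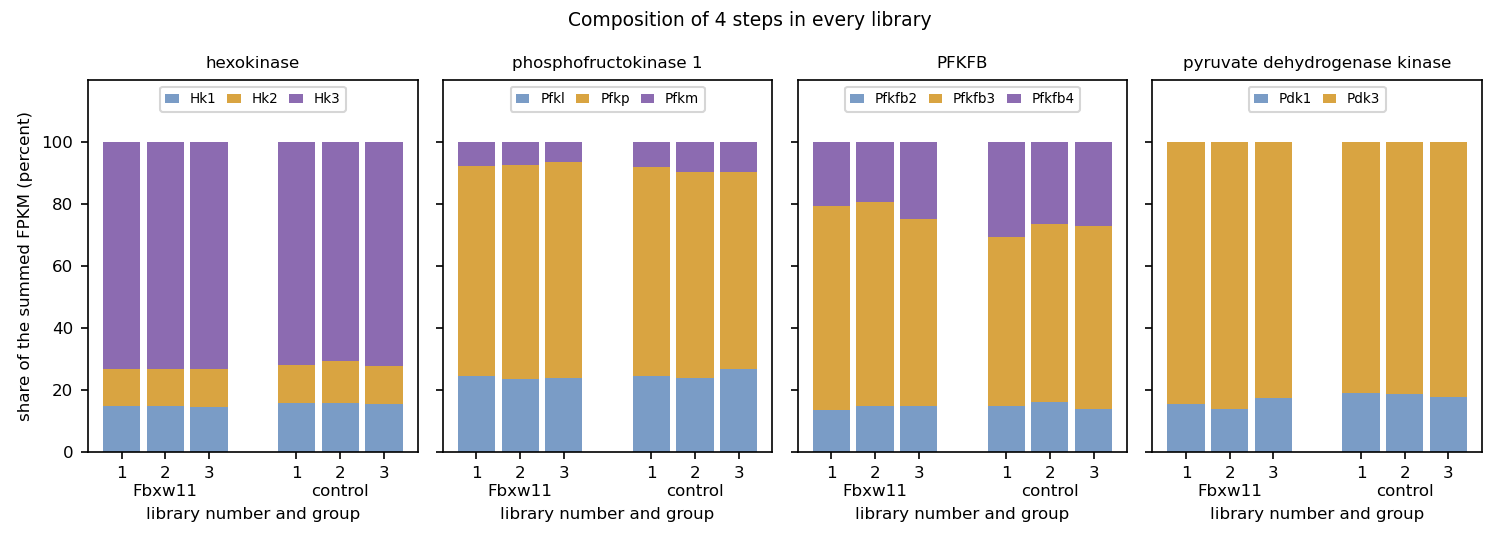
Share of the summed FPKM held by each gene of 4 steps, in percent, for Fbxw11 libraries 1 to 3 and control libraries 1 to 3. Hk3 is above 70% of hexokinase in every library, and the Pfkfb3 band is 60.3% to 65.8% in Fbxw11 libraries and 54.5% to 58.9% in control libraries.

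Further genes of these pathways were read from 6 lists, of which 83 of 115 identifiers were tested; 4 were called higher and 3 lower, with a median log2 fold change of 0.00. These shares, 4.82% and 3.61%, are close to the 4.60% and 4.64% of all identifiers, so the calls below describe single genes and not their lists. Among other isozymes and transporters 1 of 14 rose and 1 fell. Slc2a6, a hexose transporter of lysosomal membranes known from activated macrophages, had 37.5, 33.0 and 34.8 FPKM in Fbxw11 libraries, against 23.1, 23.9 and 27.0 FPKM in control libraries, a log2 fold change of 0.49 (SE 0.070; limma adjusted p = 0.00925) that was called in all 17 alternatives. Bsg, basigin, is the chaperone that brings MCT1 and MCT4 to the cell surface. It had 111, 112 and 112 FPKM in Fbxw11 libraries and 122, 123 and 123 FPKM in control libraries. Its log2 fold change was -0.13 (limma adjusted p = 0.0290). The call was lost in 9 of 17 alternatives, among them each fit with any 1 library left out (0.0528 to 0.128). Bsg and the 2 transporters it serves had values below 0, as did 5352 of the 10898 identifiers tested. Of these genes only Bsg passed the test, and a joint shift was not tested.

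Among regulators of glycolytic genes 2 of 18 rose and 0 fell. Arrdc4, an arrestin-like inhibitor of glucose uptake and a target of MondoA, had 31.8, 32.3 and 32.4 FPKM in Fbxw11 libraries, against 27.2, 27.1 and 26.9 FPKM in control libraries (log2 fold change 0.24, limma adjusted p = 0.00531), and was called in all 17 alternatives. Vhl, the ubiquitin ligase subunit that marks HIF-1 alpha for destruction, averaged 12.4 ± 0.30 FPKM in Fbxw11 libraries and 10.4 ± 0.42 FPKM in control libraries (SD, n = 3 each; log2 fold change 0.24, limma adjusted p = 0.0198). That call was lost in 5 of 17 alternatives. Among them were the fits without Fbxw11 library 1 or 2 or control library 2 or 3 (limma adjusted p 0.0540 to 0.0787).

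HIF-1 targets outside glycolysis split, with 1 of 16 higher and 1 lower. Ndrg1 averaged 47.7 ± 0.92 FPKM in Fbxw11 libraries and 40.8 ± 1.19 FPKM in control libraries (log2 fold change 0.22, limma adjusted p = 0.0127), and the call was lost without control library 1 (0.0583) or 2 (0.0673). Tfrc, the transferrin receptor, averaged 85.8 ± 4.33 FPKM in Fbxw11 libraries and 104 ± 1.51 FPKM in control libraries (log2 fold change -0.28, limma adjusted p = 0.0117), a call lost without control library 1 (0.0551). Of the pyruvate dehydrogenase complex and mitochondrial pyruvate entry 1 of 10 fell. It was Pdpr, a regulatory subunit of the phosphatase that reactivates the complex. Pdpr averaged 3.78 ± 0.22 FPKM in Fbxw11 libraries and 4.81 ± 0.21 FPKM in control libraries (SD, n = 3 each). Its log2 fold change was -0.28 (limma adjusted p = 0.0261). The call was lost in 7 of 16 alternatives. Among them were the fits without Fbxw11 library 1 or 3 or control library 1 or 2 (limma adjusted p 0.0679 to 0.105).

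No gene was called among 10 further pentose phosphate and NADPH genes, where the median log2 fold change was -0.10 and 3 had an unadjusted p under 0.05, against 24.6% of all identifiers. The most abundant, the NAD kinase gene Nadk, averaged 52.5 ± 1.34 FPKM in Fbxw11 libraries and 51.1 ± 1.28 FPKM in control libraries (SD, n = 3 each). None was called among 15 genes of glycogen, galactose, fructose and hexosamine entry either, where 3 again had an unadjusted p under 0.05 and the median was 0.00. Galk1, galactokinase, the most abundant of them, averaged 45.8 ± 2.63 FPKM in Fbxw11 libraries and 45.6 ± 1.79 FPKM in control libraries (SD, n = 3 each).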

How the data were processed

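RNA sequencing of 6 libraries was deposited as a table of FPKM per gene, made by the authors; the build mm10 is given in the submitters' processing notes, and the sources used here name no aligner or counter and no rule for reads that fit several places. Gene starts and ends in the table equal those of GENCODE vM21 (GRCm38) for 2.76% of shared identifiers, although the spans match for 96.8%, so no coordinate of the table is printed. Libraries were grouped by their titles. The whole table was tested with limma 3.58.1 in R 4.3.3 (empirical Bayes with a mean-variance trend) on log2(FPKM + 1), for identifiers with a mean of at least 1 FPKM. The method was tested on simulated data first. FPKM multiplied by gene length rose in steps of 1 read, and the library size behind the FPKM was inferred from that step. Division by the step gave back whole reads (100% of values within 0.02), which limma-voom used as an alternative. The inferred size was 0.987 to 0.993 of the read total in Fbxw11 libraries and 1.014 to 1.018 of it in control libraries. No pair of replicates agreed within counting error (chi-square over its degrees of freedom 2.42 to 5.86). Other alternatives changed the pseudocount, filter, scaling, trend or libraries. The members, the further lists and the tests were chosen with earlier results of these data known, and the comparison of 31-base words with pseudogenes and the motif search were added after the values were seen. Named genes are all members, with every library given for those called and for the most and least abundant of each role, up to 4 called genes from each further list or its most abundant gene, and Fbxw11. Libraries are given in full also for members near the threshold or with copies, chosen after their values were seen. Plots used matplotlib 3.10.9. Counting error is the only error that read totals cover.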

Additional observations from a re-analysis of the deposited data

How the results depend on the processing

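Over 17 alternative analyses the 33 tested members gave 553 log2 fold changes, of which 494 kept direction and side of the threshold, 19 lost a call, 11 gained one and 29 changed sign, all in 12 members that were not called. The 3 members called higher became 1 on the TPM scale, with no filter, with no mean-variance trend and with a replicate block, 5 by voom, and 1 to 3 when 1 library was left out; the 0 lower became 1 on the TPM scale, 2 by voom and 0 to 1. Of the further lists, 4 higher became 2 to 4 and 3 lower 0 to 2 when 1 library was left out, and 3 lower became 6 on the TPM scale and 5 by voom. Over all identifiers the 501 higher and 506 lower calls became 289 and 307 with no filter and 752 and 732 by voom. They became 190 to 418 and 220 to 383 when 1 library was left out, and 303 and 318 with the replicate block. The labels do not say whether replicate numbers pair libraries. The deviations of same-numbered libraries correlated at 0.0361, 0.0405 and 0.189. The last value, for number 3, was the highest of any pair across the groups. Fbxw11 library 2 correlated best with control library 1 (0.148). The median log2 fold change over all identifiers was -0.038 on the TPM scale, against 0.0029 in the main analysis. On the TPM scale these log2 fold changes turned: Gpi1 (-0.026), Pfkl (-0.020), Aldoa (-0.014), Tpi1 (-0.0077), Pgls (-0.0033), Pgd (-0.042), Taldo1 (-0.018). Median centring turned Tkt (0.0084), and leaving out both libraries numbered 3 turned Pgam1 (0.0086) and Pgls (-0.035). With 1 library left out the ranges were -0.0073 to 0.038 for Gpi1, -0.030 to 0.076 for Pfkl, -0.18 to 0.014 for Pfkfb4, -0.40 to 0.070 for Gapdh, -0.082 to 0.031 for Pgam1, -0.054 to 0.13 for Pgls, -0.017 to 0.017 for Pgd, -0.055 to 0.032 for Tkt, -0.022 to 0.061 for Taldo1, -0.10 to 0.0011 for Rpia. The cause of these changes was not tested. The counts under edgeR and DESeq2 were not run, because the deposited unit is FPKM. Few reads limit Ldhb and the second Aldoa identifier.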

Other observations

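Arrdc4 and Txnip, arrestin-like genes that are both known targets of MondoA and inhibitors of glucose uptake, stood on opposite sides. Arrdc4 was among the calls (log2 fold change 0.24), while Txnip had 342, 341 and 363 FPKM in Fbxw11 libraries and 377, 386 and 419 FPKM in control libraries, with a log2 fold change of -0.17 (SE 0.051; limma adjusted p = 0.0878) that was called in 3 of 17 alternatives. Txnip was named after its values were seen, and the difference between the 2 genes was not tested. Hif1a, the subunit of HIF-1 whose protein level oxygen controls, had 83.3, 89.3 and 96.9 FPKM in Fbxw11 libraries and 93.4, 94.3 and 97.1 FPKM in control libraries (limma adjusted p = 0.434). Eno1b, a retrotransposed enolase gene that the table counts apart from Eno1, averaged 174 ± 16.7 FPKM in Fbxw11 libraries and 176 ± 7.49 FPKM in control libraries (SD, n = 3 each).

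Within the groups, Fbxw11 library 1 was the highest of its group in 16 of the 33 tested members and Fbxw11 library 3 the lowest in 17, while control library 3 was the highest in 18 and control library 1 the lowest in 19.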
